A study of Mus musculus with 12 samples.

Results

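A set of 8 genes of the Wnt pathway and of the naive T cell programme was followed across CD8 T cells that had met a foreign antigen under different conditions and across naive ones. They were Wnt10b, Ctnnb1, Tcf7, Lef1, Bach2, Satb1, Foxp1 and Foxo1, which are 8 of the 16353 genes in the deposited count table, found there by their symbols, and all 8 had enough reads to be tested. The cells were KB5 CD8 T cells from CBA/J mice, which carry a transgenic T cell receptor that reacts to C57BL/6 antigens. They were sorted from spleen on the KB5 receptor and on CD8 to a stated purity of 95%, 12 h after treatment. Inflamed cells came from mice that had received 10 M (mega) splenocytes of C57BL/6 mice with 0.5 mg of anti-CD154, plus 100 µg of LPS, the bacterial lipopolysaccharide that sets off inflammation. For tolerized cells the mice received these splenocytes together with anti-CD154 but no LPS. Anti-CD154 binds CD40 ligand and blocks its costimulatory signal. For activated cells they received splenocytes alone, and naive cells were taken from untreated mice. Each of these 4 groups had 3 libraries. All groups shared the transgenic receptor and the strain. A single receptor specificity and a single time point limit these cells as a model of CD8 T cells in general.

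Wnt proteins are secreted ligands. When they bind their receptors, beta-catenin escapes destruction, enters the nucleus and works there with transcription factors of the TCF/LEF family. In resting T cells the TCF/LEF factors TCF1 (encoded by Tcf7) and LEF1 help to keep naive and memory-like states, and they can act with or without beta-catenin. BACH2 and FOXP1 are repressors that hold T cells in a quiet or less differentiated state, SATB1 organises chromatin in the T cell lineage, and FOXO1 drives genes for lymph node homing and survival until signals from the receptor send it out of the nucleus.

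The libraries held 29.3 to 84.5 M reads assigned to genes, and 12499 genes were tested. Levels are counts per M reads (CPM), scaled between libraries by the trimmed mean of M values, with the SD over 3 libraries. Changes are differences of log2(CPM + 1) between group means with their SE, which understate the change of genes with low counts, and adjusted p-values are from limma with Benjamini-Hochberg adjustment over all tested genes. Libraries are called independent in the labels, which do not name separate mice. The p-values therefore rest on the spread between samples alone, and that spread may be technical. In this bulk RNA, fewer cells that express a gene and less of its RNA per cell cannot be told apart. Summed T cell markers (10 of 11 listed genes in the table) stood at 3774 to 4045 CPM in inflamed, 2946 to 3774 in tolerized, 2562 to 3993 in activated and 5428 to 6664 in naive libraries. Markers of other spleen cells also moved with the groups. Summed B cell markers (10 of 10) ran from 101 to 150.3 CPM in inflamed, 101 to 213 in tolerized, 122 to 153 in activated and 432 to 550.3 in naive libraries. Macrophage markers (11 of 12) ran from 16.0 to 577, 43.8 to 127, 52.1 to 666 and 655 to 1697 CPM in the same order of groups, and erythroid markers (8 of 10) from 19.8 to 123, 51.0 to 156, 40.1 to 302 and 997 to 2398 CPM. Neutrophil markers (9 of 10) ran from 12.3 to 222 CPM in inflamed, 2.77 to 10.7 in tolerized, 2.42 to 16.2 in activated and 15.01 to 21.4 in naive libraries, with 0 to 4 of them at 0 in a library. Dendritic cell markers (8 of 8) ran from 1.71 to 7.52, 4.37 to 37.0, 2.44 to 11.2 and 15.9 to 35.5 CPM in the same order, and CD4 T cell markers (4 of 4) from 41.4 to 49.6, 42.8 to 61.1, 47.1 to 54.7 and 57.7 to 78.9 CPM. NK cell markers (8 of 8), some of which activated CD8 T cells also express, ran from 374 to 432, 409 to 653, 394 to 475 and 92.5 to 111 CPM. That sum does not stand for the whole NK list. Of its 6 tested genes 2 were higher and 2 lower in each exposed group against naive cells. Over all tested genes 35.3% to 37.4% were higher and 35.3% to 35.9% lower. Foxp3 made up most of the CD4 T cell sum. Cd4 itself ran from 3.15 to 6.66 CPM in the inflamed, tolerized and activated libraries and from 13.7 to 24.0 CPM in naive ones. Zbtb7b was also higher in naive libraries, and Cd40lg was lower. No marker of the B cell or macrophage lists was at 0 in any library. The part of these cells in the differences from naive cells was not tested.

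All 8 genes differed between antigen-exposed and naive cells. Wnt10b, Ctnnb1, Bach2 and Foxp1 were higher, and Tcf7, Lef1, Satb1 and Foxo1 were lower, in inflamed, in tolerized and in activated cells. In the table as a whole 36.9% of tested genes were higher and 35.5% lower in inflamed cells (72.4% in either direction). The shares were 37.4% and 35.9% in tolerized cells (73.3%), and 35.3% and 35.3% in activated cells (70.7%), each against naive cells. A call in these comparisons was therefore common, and the 3 comparisons share the naive libraries. For each of the 8 genes the 3 libraries of each exposed group lay wholly above or wholly below the 3 naive libraries. Between the exposed groups the changes were few: only Wnt10b and Satb1 passed the test there.

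**Figure D1:**
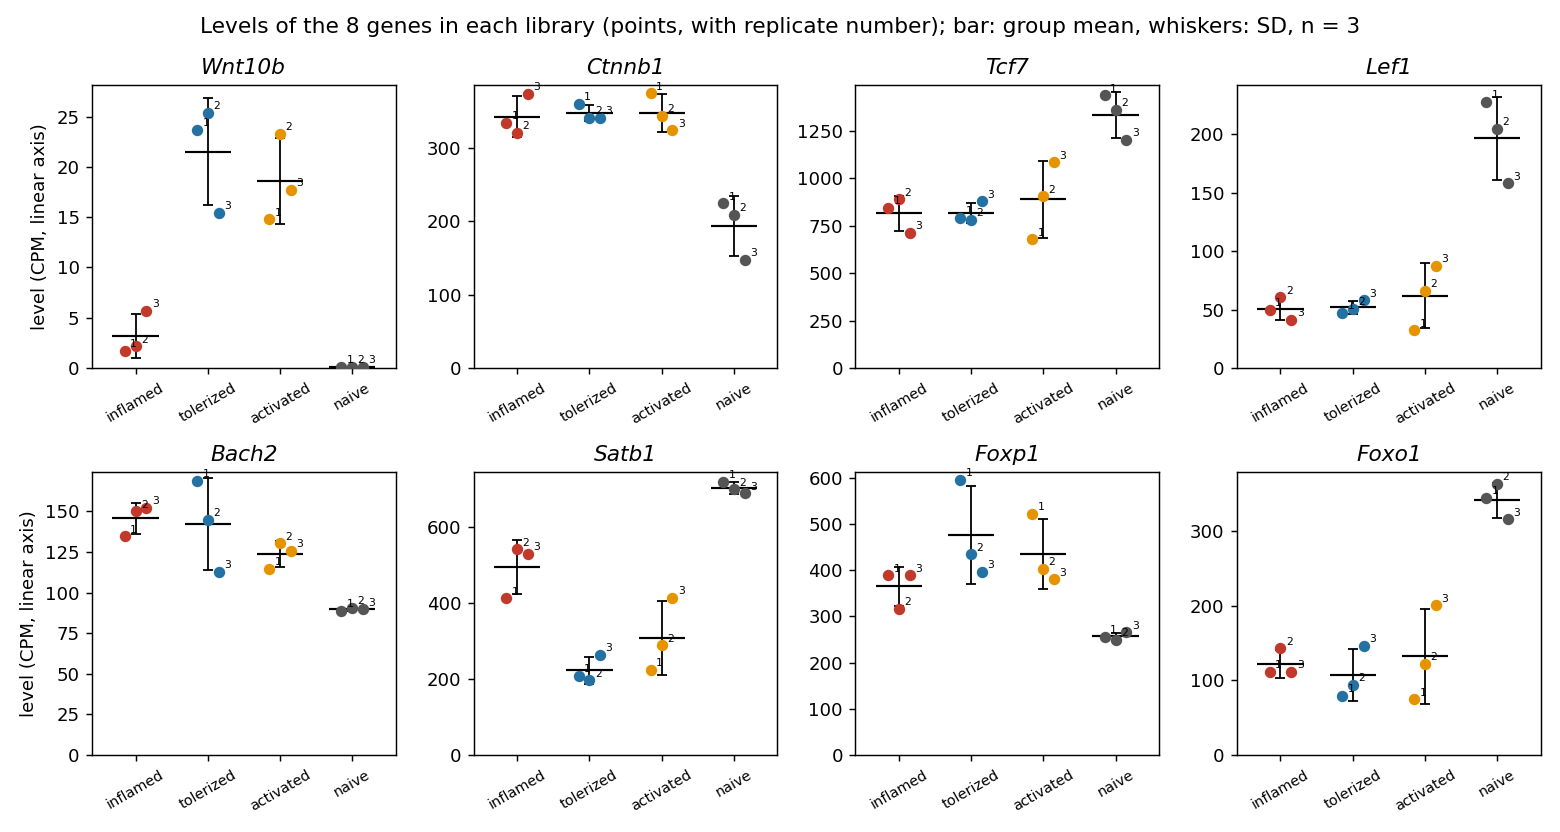
Level of each of the 8 genes in each library, in CPM on a linear axis that starts at 0, by group. Points are libraries with their replicate number, bars are group means and whiskers the SD of 3 libraries. Wnt10b averaged 3.18 CPM in inflamed and 21.5 CPM in tolerized libraries, and for every gene the naive points lie apart from the rest.

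Wnt10b, a ligand that signals through beta-catenin, had the widest range of the 8 genes. The gene lies on chromosome 15 (98770712 to 98778206, minus strand, GRCm38.p6), and the transcript counted has 5 exons. It stood at 1.71, 2.18 and 5.66 CPM in inflamed libraries, at 23.7, 25.4 and 15.5 CPM in tolerized libraries and at 14.8, 23.3 and 17.7 CPM in activated libraries, against 0.109, 0.125 and 0.131 CPM in naive libraries. The naive values rest on 5, 12 and 5 reads, 22 in all, with an exact Poisson 95% interval of 13.8 to 33.3 reads. It covers counting error only and takes the reads as independent. If read pairs were counted as 2, it is too narrow. The inflamed libraries thus formed a level of their own, above every naive library and below every tolerized and activated one. Tolerized and activated libraries overlapped.

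Against naive cells the mean CPM of Wnt10b was 26.2-fold higher in inflamed, 177-fold higher in tolerized and 153-fold higher in activated cells. On the log2(CPM + 1) scale the rises were 1.78 ± 0.32 (adjusted p = 0.000473, limma), 4.30 ± 0.32 (adjusted p = 8.23e-07) and 4.10 ± 0.32 (adjusted p = 1.33e-06). These sizes depend on the pseudocount: with 0.1 in place of 1 they were 3.70, 6.58 and 6.37, with 5 they were 0.65, 2.35 and 2.19, and with limma-voom 4.42, 7.34 and 7.15, all past the threshold. The promoter of Wnt10b is shown because this gene moved most. It is the RefSeq sequence from 250 bases before to 50 bases after the start of transcription, chr15:98778101-98778400 on the minus strand of GRCm38.p6, 5′ to 3′, and it has no capitals because none of the 5 motifs searched was found in it.

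Wnt10b promoter: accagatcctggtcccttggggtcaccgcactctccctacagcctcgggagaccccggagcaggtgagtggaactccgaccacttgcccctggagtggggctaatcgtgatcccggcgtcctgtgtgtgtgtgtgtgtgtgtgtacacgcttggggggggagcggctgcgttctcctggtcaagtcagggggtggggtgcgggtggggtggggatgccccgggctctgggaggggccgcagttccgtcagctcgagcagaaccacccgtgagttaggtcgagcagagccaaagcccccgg

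Its GC content was 66.3% with 18 CpG pairs, against medians of 52.7% and 7 over 32851 RefSeq promoters of the same length. The motifs were searched on both strands. They were CTTTGNT (TCF/LEF), GTAAACA (FOXO), GGAAAA (NFAT), TGANTCA (AP-1) and TGACGTCA (CRE), which are held by 18.6%, 3.65%, 23.4%, 7.81% and 1.79% of all those promoters. For 6 of the 8 genes the RefSeq promoter lay within 200 bases of the start of the transcript counted in the table. Among these 6, 0 held the TCF/LEF letters, 1 the FOXO letters, 2 the NFAT letters, 0 the AP-1 letters and 0 the CRE letters.

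LPS was the one difference in treatment between inflamed and tolerized cells. Wnt10b was lower in inflamed cells, at 3.18 ± 2.16 CPM, than in tolerized cells, at 21.5 ± 5.3 CPM (SD, n = 3 each), and the log2 change was -2.51 ± 0.32 (adjusted p = 0.00179, limma). This was the 7th largest fall of the 12499 tested genes, where 348 genes, 2.78%, were called in either direction and 1.12% were lower. Against activated cells, at 18.6 ± 4.30 CPM, the change was -2.32 ± 0.32 (adjusted p = 0.00387), the 2nd largest fall, where 240 genes, 1.92%, were called, 1.54% higher and 0.384% lower. With a pseudocount of 5 the change against activated cells was -1.54. Correlations did not single out the same-numbered inflamed and activated libraries as pairs. In a fit of those 2 groups with the replicate number as a block the change was -2.31 (adjusted p = 0.0696, limma), and 68 genes were called. The same kind of fit for inflamed against tolerized cells gave Wnt10b an adjusted p of 0.192 (limma), and 0 genes were called. The counts of called genes were also lower without inflamed replicate 1 (179 against tolerized and 125 against activated cells) or inflamed replicate 2 (174 and 121), without activated replicate 2 (107 against activated cells) and without tolerized replicate 2 (157 against tolerized cells), and were 540 against tolerized cells without tolerized replicate 1. In that last fit 37.8% of the called genes were higher in inflamed cells, in place of 59.8% with all libraries, so most calls were then lower.

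Neutrophil and macrophage markers were uneven among the inflamed libraries. Summed neutrophil markers stood at 222, 101 and 12.3 CPM and macrophage markers at 577, 190.4 and 16.0 CPM in inflamed replicates 1, 2 and 3. Replicate 3, with the lowest of both sums, had the highest Wnt10b of the inflamed libraries, at 5.66 CPM. Without inflamed replicate 1, the richest in both, the change of Wnt10b was -2.26 (adjusted p = 0.00891) against tolerized and -2.08 (adjusted p = 0.0177) against activated cells. The part of neutrophils and macrophages in the lower Wnt10b was not tested. Between tolerized and activated cells, whose treatment differed by anti-CD154, Wnt10b differed by 0.19 ± 0.32 and was not called (adjusted p = 1), with a 95% interval of -0.51 to 0.89.

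**Figure D2:**
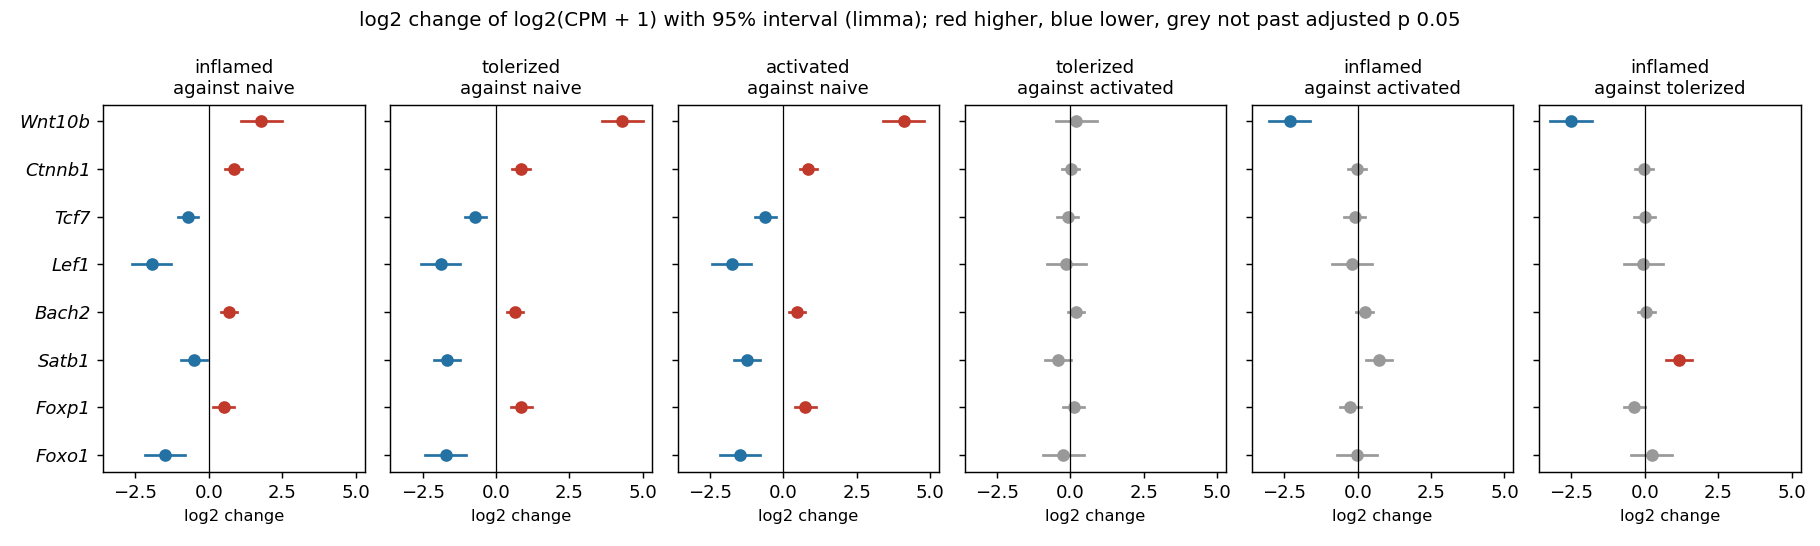
Change of each gene in the 6 comparisons, as the difference of log2(CPM + 1) between group means, with 95% intervals from limma over 12 libraries. Red points were higher, blue points lower and grey points not past adjusted p 0.05 in the group named first. Wnt10b at -2.32 and -2.51 and Satb1 at 1.15 are the coloured points in the panels without naive cells.

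Other Wnt ligands were mostly too low to test. Of a list of 20 ligand and secretion genes without Wnt10b, 15 were in the table and 3 were tested: 0 were higher and 1 lower in inflamed cells, and 1 was higher and 1 lower in tolerized as in activated cells, each against naive cells. Wnt5b, a ligand that mostly signals without beta-catenin, fell to 5.92 ± 1.76 CPM in inflamed, 3.99 ± 0.89 in tolerized and 8.21 ± 3.05 in activated cells, against 30.8 ± 3.40 CPM in naive cells, by 2.23 ± 0.26, 2.68 ± 0.26 and 1.84 ± 0.26 on the log2 scale (largest adjusted p = 0.000127, limma). Wnt10a, the nearest relative of Wnt10b, stood at 0.390 ± 0.081 CPM in inflamed, 1.17 ± 0.43 in tolerized and 0.907 ± 0.218 in activated cells, against 0.342 ± 0.227 CPM in naive cells. It passed the test in tolerized cells (0.69 ± 0.17, adjusted p = 0.00432) and in activated cells (0.51 ± 0.17, adjusted p = 0.021), and not in inflamed cells (0.06 ± 0.17, adjusted p = 0.755). The other tested gene, Wnt2b, was under 1 CPM in the mean of every group and was not called. Over all tested genes 35.3% to 37.4% were higher and 35.3% to 35.9% lower in the comparisons with naive cells.

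Ctnnb1, which encodes beta-catenin itself (chromosome 9, 120933400 to 120960507, plus strand, 15 exons), was higher in all 3 exposed groups. It stood at 335, 321 and 374 CPM in inflamed libraries, 361, 342 and 342 CPM in tolerized libraries and 375, 344 and 324 CPM in activated libraries, against 225, 209 and 148 CPM in naive libraries. Every exposed library lay above the highest naive one, and naive replicate 3 was the lowest of all 12. The rises were 0.84 ± 0.14 in inflamed (adjusted p = 0.000274), 0.86 ± 0.14 in tolerized (adjusted p = 0.000228) and 0.86 ± 0.14 in activated cells (adjusted p = 0.000274, limma). Scaled by library size alone they were 0.51, 0.55 and 0.58, all past the threshold. Among the exposed groups the means lay within 343 and 348 CPM, and the difference of tolerized from activated cells was 0.00 ± 0.14 with a 95% interval of -0.30 to 0.31. Part of a Ctnnb1 exon overlaps Ulk4 on the opposite strand for 759 bases, and the sources used here do not give the strand used in counting, but Ulk4 had at most 0.699 CPM in any library.

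The destruction complex marks beta-catenin for destruction, and the list followed here also holds genes that act on the complex, such as Dishevelled. Genes of this mixed list went both ways. Of its 19 tested genes, 6 were higher and 5 lower in inflamed, 6 and 7 in tolerized and 5 and 6 in activated cells. The shares of all tested genes were 35.3% to 37.4% higher and 35.3% to 35.9% lower. The list's median changes were -0.06, -0.11 and -0.04, against -0.01, -0.01 and -0.04 over all tested genes. Fbxw11, a subunit of the ubiquitin ligase that recognises phosphorylated beta-catenin, rose by 1.67 ± 0.14, 1.51 ± 0.14 and 1.45 ± 0.14 in inflamed, tolerized and activated cells, where it averaged 166, 149 and 144 CPM against 51.4 CPM in naive cells. The casein kinase genes Csnk1d and Csnk1a1 rose by 0.58 to 0.70, while Csnk1g2 fell by 0.86 ± 0.12, 0.81 ± 0.12 and 0.81 ± 0.12. Axin2, a scaffold of the complex and a widely used target gene of beta-catenin, was chosen after its values were seen. It stood at 5.17, 12.0 and 5.54 CPM in inflamed, 6.27, 6.38 and 9.11 CPM in tolerized and 4.90, 13.6 and 22.2 CPM in activated libraries, against 61.8, 60.1 and 62.2 CPM in naive libraries, and fell by 2.95 ± 0.43, 2.93 ± 0.43 and 2.31 ± 0.43 (largest adjusted p = 0.000813, limma). Wnt10b and Ctnnb1 were thus higher, and Axin2 lower, in the same libraries.

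Of 14 tested Wnt receptors and receptor regulators 2 were higher and 4 lower in inflamed, 2 and 5 in tolerized and 2 and 4 in activated cells, with medians of -0.24, -0.32 and -0.16. Over all tested genes the medians were -0.01, -0.01 and -0.04, with 35.3% to 37.4% higher and 35.3% to 35.9% lower. The receptor genes Fzd3 and Fzd9 were the 2 that rose, both at low levels. Fzd3 reached 1.60 ± 0.38, 2.0 ± 0.50 and 2.22 ± 0.69 CPM in inflamed, tolerized and activated cells, against 0.138 ± 0.074 CPM in naive cells. Lrp5, a coreceptor, fell by 1.0 ± 0.20, 1.16 ± 0.20 and 1.01 ± 0.20, and Kremen1, a receptor for the Wnt antagonists of the Dickkopf family, by 1.60 ± 0.23, 1.79 ± 0.23 and 1.59 ± 0.23.

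Tcf7, which encodes TCF1 (chromosome 11, 52246527 to 52283383, minus strand, 10 exons), had the highest level per kilobase of exon of the 8 genes in every group and fell in all exposed groups. It stood at 846, 889 and 712 CPM in inflamed libraries, 792, 781 and 879 CPM in tolerized libraries and 677, 904 and 1083 CPM in activated libraries, against 1437, 1359 and 1201 CPM in naive libraries. The falls were 0.71 ± 0.16 in inflamed (adjusted p = 0.00213), 0.70 ± 0.16 in tolerized (adjusted p = 0.00231) and 0.61 ± 0.16 in activated cells (adjusted p = 0.00585, limma), which left 61.2%, 61.3% and 66.7% of the naive mean CPM. Without activated replicate 1, the lowest activated library, the fall in activated cells was 0.39 with adjusted p = 0.0233. The spread was widest in activated cells, where the highest library held 1.60 times the level of the lowest.

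The Tcf7 promoter is shown because it is the one of those 6 that held the FOXO letters. Capitals mark GTAAACA (FOXO) and TTTTCC, the NFAT letters read on the other strand. The window is chr11:52282546-52282845 on the minus strand of GRCm38.p6. Skp1 lies over part of the Tcf7 locus in the annotation, with no exon shared.

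Tcf7 promoter: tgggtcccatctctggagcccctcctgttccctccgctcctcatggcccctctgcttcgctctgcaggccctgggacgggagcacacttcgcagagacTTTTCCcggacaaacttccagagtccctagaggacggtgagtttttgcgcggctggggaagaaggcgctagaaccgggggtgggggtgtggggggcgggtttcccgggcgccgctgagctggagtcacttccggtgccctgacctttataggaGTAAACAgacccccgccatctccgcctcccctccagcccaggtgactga

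Lef1, the other main TCF/LEF gene of T cells (chromosome 3, 131110297 to 131224357, plus strand, 12 exons), fell further than Tcf7. It stood at 49.6, 60.7 and 41.5 CPM in inflamed libraries, 47.4, 50.5 and 58.1 CPM in tolerized libraries and 32.2, 66.1 and 87.6 CPM in activated libraries, against 228, 205 and 158 CPM in naive libraries. Even the highest activated library was far below the lowest naive one. Means were 25.7%, 26.4% and 31.5% of the naive mean, and the log2 changes were -1.94 ± 0.30 (adjusted p = 0.000191), -1.89 ± 0.30 (adjusted p = 0.000232) and -1.75 ± 0.30 (adjusted p = 0.000457, limma) in inflamed, tolerized and activated cells. Between tolerized and activated cells Lef1 differed by -0.14 ± 0.30 and Tcf7 by -0.10 ± 0.16 (adjusted p = 1 for both), with 95% intervals of -0.81 to 0.53 and -0.45 to 0.26. An antisense gene, Gm43352, overlaps Lef1 exons for 1208 bases in the annotation and is not in the table, so its reads cannot be told apart if counting ignored strand.

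The 2 remaining TCF family genes were low, and were chosen after their values were seen. Tcf7l2 averaged 0.954, 0.577 and 1.35 CPM in inflamed, tolerized and activated cells against 7.99 ± 3.62 CPM in naive cells, and Tcf7l1 averaged 1.33, 1.84 and 1.49 CPM against 2.25 CPM. Among 19 tested partners, coactivators and corepressors of TCF/LEF factors, 2 were higher and 11 lower in inflamed cells. Counts were 3 and 11 in tolerized and 3 and 12 in activated cells, and the median changes were -0.64, -0.73 and -0.56. For all tested genes the medians were -0.01, -0.01 and -0.04, with 35.3% to 37.4% higher and 35.3% to 35.9% lower. Bcl9l, a coactivator that links beta-catenin to the transcription machinery, fell by 2.17 ± 0.38, 2.48 ± 0.38 and 2.17 ± 0.38, to 58.1, 46.6 and 62.3 CPM, against 256 CPM in naive cells. The Groucho-type corepressor genes split, with Tle3 higher by 0.36 ± 0.09, 0.58 ± 0.09 and 0.29 ± 0.09, Tle6 by 1.79 ± 0.21, 1.28 ± 0.21 and 1.5 ± 0.21, and Tle2 lower by 1.33 ± 0.21, 1.59 ± 0.21 and 1.26 ± 0.21. Tle1 was the list gene that separated inflamed from tolerized cells: it stood at 24.7, 21.0 and 22.7 CPM in inflamed libraries against 14.7, 10.96 and 12.8 CPM in tolerized libraries, a change of 0.79 (adjusted p = 0.00791, limma). Naive cells averaged 22.5 ± 1.60 CPM.

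Bach2, a repressor of effector genes (chromosome 4, 32238413 to 32586109, plus strand, 5 exons), was higher after antigen. It stood at 135, 150.2 and 152 CPM in inflamed libraries, 169, 145 and 113 CPM in tolerized libraries and 115, 130.5 and 126 CPM in activated libraries, against 88.8, 90.7 and 89.6 CPM in naive libraries. The naive libraries were nearly level, and the 3 tolerized ones spread widest. The rises were 0.69 ± 0.13 (adjusted p = 0.000543) in inflamed, 0.64 ± 0.13 (adjusted p = 0.000929) in tolerized and 0.46 ± 0.13 (adjusted p = 0.00744, limma) in activated cells. They depend on scaling: by library size alone they were 0.36, 0.33 and 0.18, and by the upper quartile the rise was 0.42 in tolerized and 0.26 in activated cells. The call in activated cells was lost under both of these scalings. All inflamed libraries lay above all activated ones, but that difference of 0.24 ± 0.13 did not pass (adjusted p = 0.597), with a 95% interval of -0.04 to 0.51. Bach2os overlaps 537 bases of Bach2 exons on the opposite strand.

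Satb1, a chromatin organiser of T cells (chromosome 17, 51736187 to 51833290, minus strand, 11 exons), was the second gene that separated inflamed from tolerized cells. It stood at 412, 541 and 529 CPM in inflamed libraries, 207, 196 and 264 CPM in tolerized libraries and 223, 288 and 413 CPM in activated libraries, against 718, 699 and 688 CPM in naive libraries. Inflamed libraries averaged closest to the naive level and tolerized libraries lowest. Tolerized and activated libraries overlapped, and activated replicate 3 reached the lowest inflamed library. Means were 70.3%, 31.7% and 43.9% of the naive mean in inflamed, tolerized and activated cells. Gm36931 overlaps 156 bases of Satb1 exons on the same strand and is not in the table, so its reads cannot be told apart.

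Against naive cells Satb1 fell by 1.67 ± 0.20 in tolerized cells (adjusted p = 3.05e-05) and by 1.23 ± 0.20 in activated cells (adjusted p = 0.000309, limma). The fall of 0.52 ± 0.20 in inflamed cells was near the threshold (adjusted p = 0.0372). It was lost without a filter on low genes (adjusted p = 0.0528) and without inflamed replicate 1 (-0.38, adjusted p = 0.15), inflamed replicate 3, tolerized replicate 1 or any one of the naive replicates, with adjusted p up to 0.0832 in these last 5 fits. Against tolerized cells, Satb1 was higher in inflamed cells by 1.15 ± 0.20 (adjusted p = 0.0118), where 1.66% of tested genes were higher. Without inflamed replicate 2 this was 1.08 (adjusted p = 0.0651), and without tolerized replicate 2 it was 1.06 (adjusted p = 0.0683). Without inflamed replicate 1, the library richest in neutrophil and macrophage markers, it was 1.27 (adjusted p = 0.023). With the replicate number as a block in inflamed and tolerized cells only, Satb1 had an adjusted p of 0.0977 (limma). Against activated cells the difference of 0.71 ± 0.20 did not pass (adjusted p = 0.138), but did without activated replicate 3 (0.95, adjusted p = 0.0186). Tolerized cells differed from activated cells by -0.43 ± 0.20 (adjusted p = 1), with a 95% interval of -0.88 to 0.01.

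Foxp1, a forkhead repressor that keeps T cells quiescent (chromosome 6, 98925342 to 99522746, minus strand, 19 exons), was higher after antigen. It stood at 389, 317 and 389 CPM in inflamed libraries, 596, 434 and 396 CPM in tolerized libraries and 522, 403 and 380.1 CPM in activated libraries, against 255, 249 and 265 CPM in naive libraries. Tolerized replicate 1 and activated replicate 1 were the highest, and inflamed libraries all lay below all tolerized ones. The rises were 0.50 ± 0.16 in inflamed (adjusted p = 0.0164), 0.87 ± 0.16 in tolerized (adjusted p = 0.000674) and 0.75 ± 0.16 in activated cells (adjusted p = 0.00194, limma). With library size alone they were 0.17, 0.56 and 0.47, and the call in inflamed cells was lost under that scaling and under the upper quartile (0.29). The difference of inflamed from tolerized cells was -0.37 ± 0.16 and did not pass (adjusted p = 0.325). Its 95% interval ran from -0.72 to -0.01. On the same strand Gm20696 overlaps 300 bases and Gm49348 135 bases of Foxp1 exons. Neither is in the table, so their reads cannot be told apart.

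Foxo1, the forkhead activator of homing and survival genes (chromosome 3, 52268337 to 52350109, plus strand, 3 exons), was lower after antigen. It stood at 111, 143 and 111 CPM in inflamed libraries, 79.3, 94.3 and 146 CPM in tolerized libraries and 74.4, 122 and 201 CPM in activated libraries, against 344, 363 and 316 CPM in naive libraries. The exposed groups overlapped, and activated libraries alone spanned 2.70-fold. The changes were -1.49 ± 0.31 in inflamed (adjusted p = 0.00141), -1.72 ± 0.31 in tolerized (adjusted p = 0.00057) and -1.47 ± 0.31 in activated cells (adjusted p = 0.00173, limma). Among the exposed groups the differences were -0.24 ± 0.31 for tolerized against activated, -0.02 ± 0.31 for inflamed against activated and 0.23 ± 0.31 for inflamed against tolerized cells, and none passed. Gm20402 overlaps 674 bases of Foxo1 exons on the opposite strand and is not in the table.

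The promoter of Foxo1 is given as the other one of those 6 with the NFAT letters, GGAAAA in capitals. The window is chr3:52268087-52268386 on the plus strand of GRCm38.p6, with 31 CpG pairs.

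Foxo1 promoter: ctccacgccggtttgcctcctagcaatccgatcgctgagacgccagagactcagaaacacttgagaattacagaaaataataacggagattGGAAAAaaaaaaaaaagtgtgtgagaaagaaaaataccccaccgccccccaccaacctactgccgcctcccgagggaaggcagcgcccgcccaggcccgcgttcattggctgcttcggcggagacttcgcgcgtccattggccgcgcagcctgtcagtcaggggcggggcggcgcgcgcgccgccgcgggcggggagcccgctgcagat

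FOXO1 is controlled mostly at the level of the protein, through kinases that mark it and 14-3-3 proteins that hold it in the cytoplasm. Of 16 tested regulators, 5 were higher and 7 lower in inflamed, 5 and 5 in tolerized and 5 and 5 in activated cells. Beside 35.3% to 37.4% higher and 35.3% to 35.9% lower over all tested genes, these counts do not set the list apart. Its medians were 0.03, 0.08 and 0.09, against -0.01, -0.01 and -0.04 over all tested genes. The 14-3-3 gene Ywhae rose by 2.39 ± 0.16, 2.39 ± 0.16 and 2.27 ± 0.16, to 774, 773 and 715 CPM against 145 CPM in naive cells, and Ywhaz and Ywhab rose by 0.47 to 0.85. Akt2, a kinase of the group that phosphorylates FOXO1, rose by 0.96 ± 0.08, 0.66 ± 0.08 and 0.54 ± 0.08. It was also higher in inflamed than in activated cells, at 278 ± 11.7 against 208 ± 7.75 CPM (0.42, adjusted p = 0.0247, limma).

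Of 10 genes listed as held up by FOXO1 in resting T cells, 8 were lower in each exposed group. In these comparisons 35.3% to 35.9% of all tested genes were lower. The list's median changes were -2.57 in inflamed, -2.23 in tolerized and -2.16 in activated cells, against -0.01, -0.01 and -0.04 over all tested genes. Its name is loose for some of its genes. Ctla4 averaged only 1.75 CPM in naive cells. Bcl6 averaged 17.3 CPM in naive cells, against 15.4 in inflamed, 22.3 in tolerized and 25.5 in activated cells. Il7r, the receptor for the survival cytokine IL-7, stood at 5.81, 44.4 and 8.17 CPM in inflamed, 4.48, 5.07 and 21.8 CPM in tolerized and 5.76, 34.6 and 87.9 CPM in activated libraries, against 287, 273 and 246 CPM in naive libraries. Ccr7, a lymph node homing receptor, fell by 0.82 ± 0.15, 0.85 ± 0.15 and 0.69 ± 0.15, and Sesn1, a stress response gene, by 2.39 ± 0.42, 2.05 ± 0.42 and 2.01 ± 0.42. Ctla4, an inhibitory receptor, was the one that rose, in inflamed cells (adjusted p = 0.000473, limma) and in tolerized cells (adjusted p = 0.0438). It stood at 29.3, 41.3 and 48.4 CPM in inflamed, 1.60, 6.56 and 30.04 CPM in tolerized and 1.55, 1.63 and 1.01 CPM in activated libraries, against 0.783, 1.04 and 3.44 CPM in naive libraries. Inflamed cells exceeded activated cells in Ctla4 by 4.07 (adjusted p = 0.0138), and the list was picked with results of these data known.

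**Figure D3:**
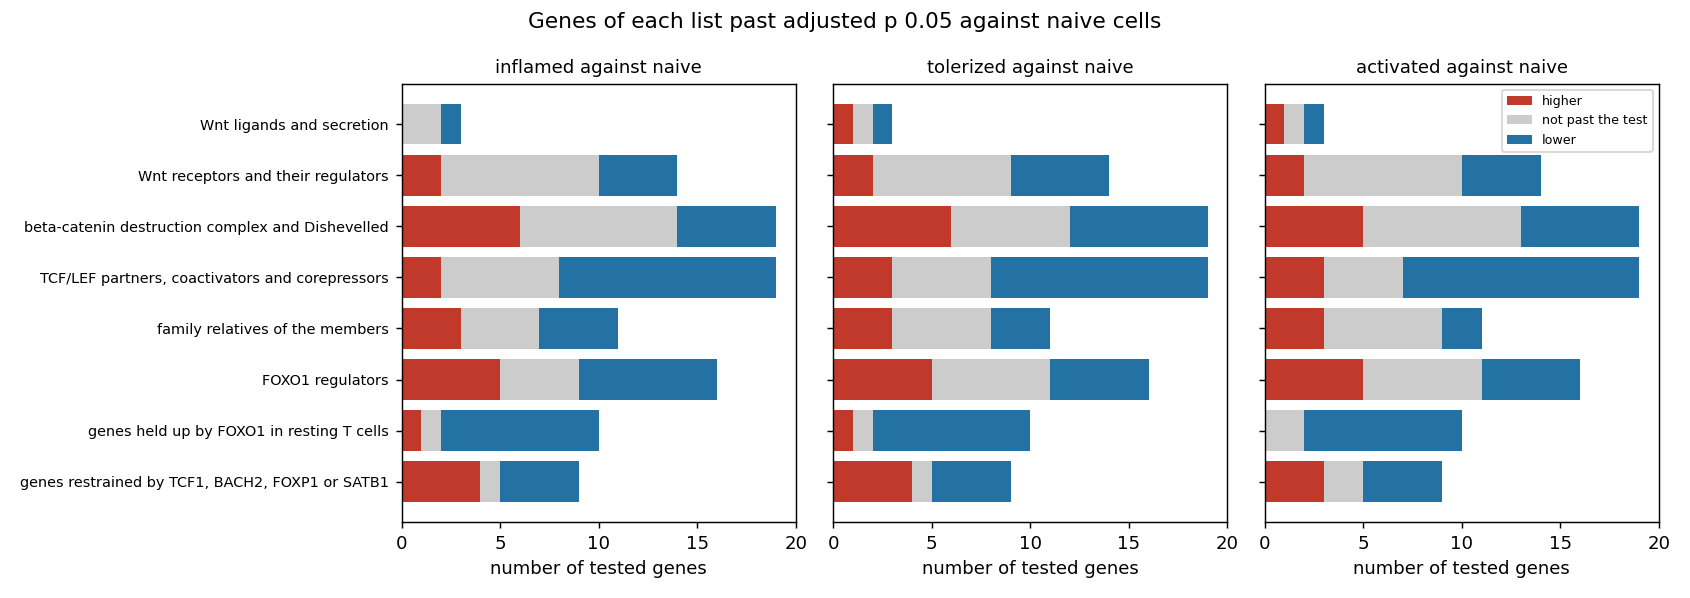
Number of tested genes of each list that were higher (red), lower (blue) or not past adjusted p 0.05 (grey) in inflamed, tolerized and activated cells, each against naive cells, out of 3 to 19 tested genes per list. Genes listed as held up by FOXO1 show 8 of 10 lower in each panel, and partners of TCF/LEF factors show 11, 11 and 12 of 19 lower. Of all tested genes 35.5%, 35.9% and 35.3% were lower.

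Genes listed as restrained by TCF1, BACH2, FOXP1 or SATB1 were split. The list does not tell which factor acts on which gene. Since Tcf7 and Satb1 fell while Bach2 and Foxp1 rose, the split cannot be read for any of these factors. Of the 9 tested genes, 4 were higher and 4 lower in inflamed, 4 and 4 in tolerized and 3 and 4 in activated cells. Their medians were 0.23, -0.75 and -1.39. All tested genes had medians of -0.01, -0.01 and -0.04, with 35.3% to 37.4% higher and 35.3% to 35.9% lower. Il2ra, the IL-2 receptor alpha chain, rose by 7.12 ± 0.23, 6.08 ± 0.23 and 6.01 ± 0.23. It was higher in inflamed cells, at 536 ± 125 CPM, than in tolerized cells, at 260.2 ± 58.8 CPM (1.04, adjusted p = 0.0411, limma). It was also higher there than in activated cells, at 252 ± 79.6 CPM (1.11, adjusted p = 0.038, limma). Gzmb, the granzyme B gene, reached 434, 324 and 408 CPM in inflamed libraries against 54.7, 33.5 and 54.1 CPM in activated libraries (3.03, adjusted p = 0.0278, limma), while tolerized replicate 3 alone stood at 261 CPM beside 35.4 and 37.9 CPM in the other tolerized libraries. Pdcd1, the PD-1 gene, rose by 5.40 ± 0.24, 5.42 ± 0.24 and 5.14 ± 0.24. Ccr9, a gut homing receptor, fell by 1.74 ± 0.41, 3.34 ± 0.41 and 1.83 ± 0.41 in inflamed, tolerized and activated cells. A mixed list held relatives of the 8 genes, small partners of BACH proteins and Tcf12. Among its 11 tested genes, 3 were higher in each exposed group and 4, 3 and 2 were lower, with medians of -0.12, 0.14 and 0.05. Mafg and Mafk, which encode small partners of BACH proteins, rose by 2.81 ± 0.19, 2.53 ± 0.19 and 2.44 ± 0.19 and by 1.05 ± 0.19, 0.87 ± 0.19 and 0.85 ± 0.19. Foxp4 rose by 1.09 ± 0.16, 1.42 ± 0.16 and 1.32 ± 0.16, and Foxo4 fell by 2.27 ± 0.34, 1.71 ± 0.34 and 1.62 ± 0.34, each in the direction of Foxp1 or Foxo1.

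**Figure D4:**
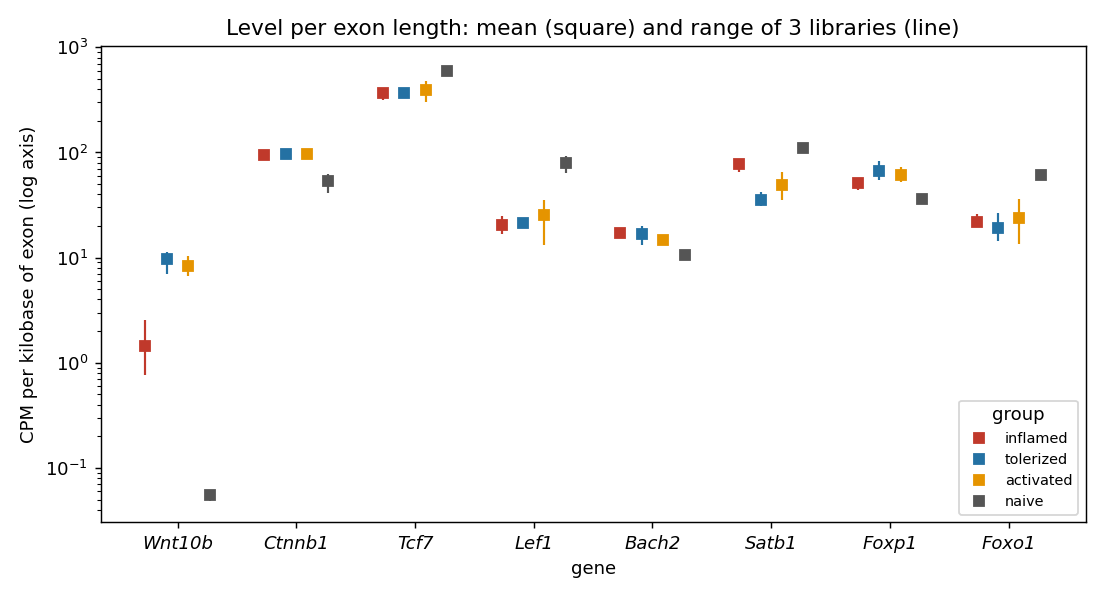
Level per kilobase of exon and M reads (log axis) for each gene and group. Squares are means and lines the range of 3 libraries. Tcf7 is the highest of the 8 in each group and Wnt10b the lowest, and Lef1 and Foxo1 stand below Ctnnb1 in the 3 exposed groups and above it in naive cells.

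Per kilobase of exon, which allows levels to be compared between genes, Tcf7 led in every group, with means of 364 in inflamed, 365 in tolerized, 397 in activated and 595 CPM per kilobase in naive cells. It exceeded 98.5% of tested genes in inflamed, 98.6% in tolerized and 98.7% in activated cells, against 99.2% in naive cells. In exposed cells Ctnnb1 came second, at 94.7 in inflamed, 96.1 in tolerized and 96.0 in activated cells. Next came Satb1 in inflamed cells, at 78.0, and Foxp1 in tolerized and activated cells, at 66.3 and 60.6. Foxo1, Lef1 and Bach2 then lay between 14.6 and 25.2 in the 3 exposed groups, where neighbouring ranges among them overlapped. In naive cells Satb1 (111), Lef1 (80.1) and Foxo1 (61.4) stood ahead of Ctnnb1 (53.6), Foxp1 (35.7), Bach2 (10.6) and Wnt10b (0.0546). The naive ranges of Lef1, 64.3 to 92.7, and of Foxo1, 56.9 to 65.4, overlapped, and so did those of Foxo1 and Ctnnb1, which reached 62.1. Wnt10b, at 1.43 in inflamed, 9.66 in tolerized and 8.35 in activated cells, exceeded 25.7%, 51.9% and 49.0% of tested genes, against 2.64% in naive cells.

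**Figure D5:**
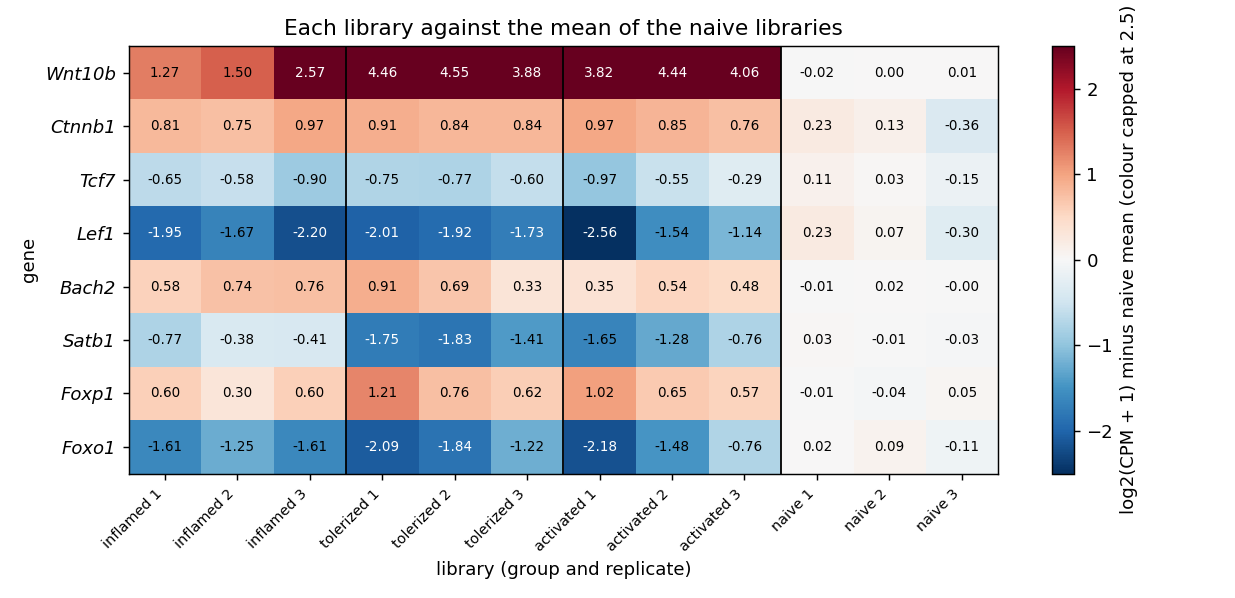
Each library's log2(CPM + 1) minus the mean of the naive libraries, by gene and by library, with the colour capped at 2.5 and the value printed in each cell. In the activated group replicate 1 is the lowest and replicate 3 the highest for Tcf7, Lef1, Satb1 and Foxo1, and Foxp1 has the reverse ranking. In inflamed replicate 2 and tolerized replicate 3 the same genes are also the highest of their group, and Foxp1 is the lowest.

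Within each exposed group the genes that fell, Tcf7, Lef1, Satb1 and Foxo1, had their highest level in the same library. These were inflamed replicate 2, tolerized replicate 3 and activated replicate 3, and Foxp1 was lowest in each of them. In the activated group replicate 1 had the lowest level of the genes that fell. Their ratios of highest to lowest there were 1.60, 2.72, 1.85 and 2.70. Foxp1 was highest in activated replicate 1. The genes listed as held up by FOXO1, without Ctla4, ranked the activated libraries likewise. Ctla4, the one of that list that rose in inflamed and tolerized cells, was left out with results of these data known. The other 9 had a mean log2(CPM + 1) of 4.69, 6.00 and 4.68 in inflamed, 4.45, 5.12 and 6.17 in tolerized and 4.56, 5.96 and 6.64 in activated replicates 1, 2 and 3, against 7.83, 7.79 and 7.64 in naive ones. Axin2 and Il7r were likewise highest in activated replicate 3. Summed T cell markers ranked the activated libraries likewise, at 2562, 3517 and 3993 CPM in replicates 1, 2 and 3. They were also highest of their groups in inflamed replicate 2, at 4045 CPM, and tolerized replicate 3, at 3774 CPM. In activated replicates 1, 2 and 3 macrophage markers, at 666, 153 and 52.1 CPM, ran the other way. So did erythroid markers there, at 302, 122 and 40.1 CPM. The part of these differences in the spread of the 8 genes was not tested. Without activated replicate 3 the differences of tolerized from activated cells were 0.06 for Tcf7, 0.16 for Lef1 and 0.11 for Foxo1, against -0.10, -0.14 and -0.24 with it.

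Between tolerized and activated cells none of the 8 genes was called (limma, adjusted p = 1 for each), and neither were others: 0% of the 12499 tested genes passed, against 531 at an unadjusted p under 0.05 and 0 with limma-voom. Without tolerized replicate 1, 60 genes were called. With the replicate number as a block, the 2 groups alone also gave 0 calls with limma, against 907 genes at an unadjusted p under 0.05. The intervals leave room for differences: the median 95% interval of all genes reached 0.342 to either side, and that of Foxo1 ran from -0.93 to 0.45.

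The genes whose levels ran most alike were found by Pearson's r of log2(CPM + 1) over the 12 libraries, which share groups and depth, among genes averaging at least 10 CPM. Wnt10b ran closest to Adora2a, the gene of an adenosine receptor (r = 0.987), Qser1 (r = 0.983) and Fasl, a death ligand gene (r = 0.978). Adora2a averaged 21.5 CPM in inflamed, 80.2 in tolerized, 68.8 in activated and 10.2 in naive cells, and Fasl 9.03, 59.2, 43.9 and 0.287 CPM. These genes were picked for their likeness to Wnt10b in these libraries, so their levels are a description. Ctnnb1 ran closest to Lsm14a and Edc3 (r = 0.989 for both) and Vps26b (0.988), and Bach2, with the lowest values, to Gypc and Nf1 (0.949 for both) and Med25 (0.945). Tcf7 ran closest to Fam113b (0.989), then Lef1 (0.987) and Lonp2 (0.981). Lef1 was most like Iqce (0.990), Slc17a9 and Tgfbr2, Satb1 like Sipa1l1 (0.984), Ndst2 and Ubr4, Foxp1 like Zmiz2 (0.982), Rbbp6 and Ccdc94, and Foxo1 like Zdhhc15 (0.994), Edem1 and Myst4.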

How the data were processed

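Messenger RNA of sorted CD8 T cells was sequenced in 12 libraries, 3 in each of 4 groups, with an Illumina HiSeq, per the labels. Their extraction text names cultured embryonic fibroblasts, at odds with the sorted T cells given elsewhere in the labels. Per the submitters' processing notes, TopHat2, bedtools and DESeq were used with the builds mm10 and GRCm38, and versions, order, roles and the handling of strand are not given in the sources used here. The deposited table holds read counts per gene and library, whole numbers written with commas and not normalized by the authors, beside each gene's exon length. Because of the commas the unit was recorded as other and a log-scale test was used. Among counts from 1 to 20, 55.6% to 64.4% were even, against 49.3% to 50.8% of those over 1000, so read pairs may have been counted as 2.

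Commas were removed and counts scaled to CPM by TMM, the trimmed mean of M values (factors 0.897 to 1.22, trimming 30% of M and 5% of A). Genes needed 10 reads at the median library size (0.258 CPM) in 3 or more libraries and 15 reads in all. Changes were tested by limma-trend on log2(CPM + 1), using limma 3.58.1 under R 4.3.3, with all 12 libraries in 1 fit with 4 group means, at adjusted p under 0.05 in each of 6 comparisons. The scripts were tested on simulated reads. Replicates correlated at 0.9609 to 0.9936 across genes. Gene positions and promoters are RefSeq's for GRCm38.p6, and all 8 genes matched both by gene identifier. Gene strands, exon counts, starts of the counted transcripts and exon overlaps are from the GENCODE annotation.

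The members and lists were chosen with earlier results of these data known. Named list genes are, for each list, the 4 of lowest adjusted p against naive cells and any list gene called in another comparison. The 3 genes most like each member are also named. Lists are described by counts and medians, with no set test. Whether replicate numbers pair libraries was read from the correlation of same-numbered libraries' deviations from their group means. All 3 exceeded 0.1 for tolerized and activated (0.60, 0.19 and 0.58) and for inflamed and activated cells (0.64, 0.23 and 0.15). In the other 4 comparisons not all 3 did. Some unlike-numbered libraries correlated more than same-numbered ones: inflamed 2 with activated 3 (0.56), inflamed 3 with activated 2 (0.25) and tolerized 3 with activated 2 (0.21). Pairing by number is therefore not established, and the block is given only as an alternative fit. Alternatives were scaling by median of ratios, upper quartile or library size, pseudocounts of 0.1 and 5, a filter at 5 CPM or none, limma-voom, 2 groups only, the 9 libraries without naive cells, a replicate block (all libraries, or 2 groups only) and each library left out.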

Additional observations from a re-analysis of the deposited data

How the results depend on the processing

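The changes of the 8 genes were recomputed 552 times under alternatives other than leaving out a library, and 536 of these kept their direction and side of the threshold, as did 543 of 576 with 1 library left out. Median changes of all genes moved with scaling: by library size alone they were -0.27, -0.25 and -0.26 in inflamed, tolerized and activated against naive cells, and 38.6%, 39.6% and 39.1% of called genes were higher in place of 51.0%, 51.0% and 50.0%. Upper-quartile scaling gave medians of -0.17, -0.19 and -0.20. Calls lost were Foxp1 in inflamed (0.29 with the upper quartile and 0.17 with library size) and Bach2 in activated against naive cells (0.26 and 0.18), and Satb1 in inflamed against naive cells with no filter (-0.52, adjusted p = 0.0528). With only 2 groups in the fit Wnt10b in inflamed against activated cells was -2.31 (adjusted p = 0.052).

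With a replicate block in 2 groups only, Wnt10b in inflamed against activated cells was -2.31 (adjusted p = 0.0696). In tolerized against activated cells 0 genes were called with this block. Same-numbered libraries did not all correlate above 0.1 in the other 4 comparisons. There the block gave Tcf7 in activated against naive cells at -0.58 (adjusted p = 0.0744, limma). In inflamed against tolerized cells it gave Wnt10b at -2.49 (adjusted p = 0.192) and Satb1 at 1.15 (adjusted p = 0.0977). The block changed no other call of the 8 genes. Genes called in inflamed against activated cells were 240, and 101 with 2 groups only, 144 with 9 libraries and 68 with the block. In inflamed against tolerized cells they were 348, and 158, 195 and 0 (limma, 1376 at an unadjusted p under 0.05).

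Small differences turned direction. Ctnnb1 in tolerized against activated cells was -0.020 with the upper quartile, -0.031 with library size and -0.014 with 2 groups only, with or without the block, and Tcf7 in inflamed against tolerized cells was 0.0027 with median-of-ratios and 0.011 with upper-quartile scaling. With 1 library left out, the number of genes called ran from 0 to 60 in tolerized against activated, 107 to 328 in inflamed against activated and 157 to 540 in inflamed against tolerized cells. In tolerized against activated cells the changes then ran from -0.046 to 0.037 for Ctnnb1, -0.30 to 0.060 for Tcf7, -0.57 to 0.16 for Lef1, -0.069 to 0.24 for Foxp1 and -0.62 to 0.11 for Foxo1. In inflamed against activated cells they ran from -0.095 to 0.016 for Ctnnb1, -0.31 to 0.053 for Tcf7, -0.62 to 0.11 for Lef1, 0.49 to 0.95 for Satb1 and -0.39 to 0.34 for Foxo1. In inflamed against tolerized cells they ran from -0.081 to 0.025 for Ctnnb1, -0.073 to 0.092 for Tcf7, -0.19 to 0.085 for Lef1, -0.10 to 0.18 for Bach2 and 1.06 to 1.28 for Satb1, and for Satb1 in inflamed against naive cells from -0.58 to -0.38. The cause of these changes was not tested. Depth limits Wnt10b in naive cells, where 22 reads carry its level.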
